A study of Mus musculus with 18 samples.

Results

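The genes described here encode the constitutive proteasome: the rings of the 20S core, the 19S regulatory particle, the chaperones that assemble both, and the activators and the inhibitor that bind the core. They were chosen by name, as every entry of the deposited expression table whose symbol is Psm followed by a letter from a to g and a number. Psmb8, Psmb9 and Psmb10, the immunoproteasome subunits that match the same pattern, were left out. This gave 46 of 48440 genes (49 before those 3 were removed). By subcomplex they are 8 genes of the alpha ring, 8 of the beta ring, 6 ATPases and 11 non-ATPase subunits of the 19S particle, 7 assembly chaperones, 5 activators and 1 inhibitor.

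Brain RNA of mice was measured in 3 groups of 6 libraries (18 in all). These were WT mice on control diet (WT_CD), 5xFAD mice on control diet (5xFAD_CD) and 5xFAD mice on a diet with fucose (5xFAD_FD), and every group had received its diet for 1 month. The 5xFAD line is a model of Alzheimer's disease whose transgenes are driven in neurons by Thy1 elements. Both 5xFAD groups carried these transgenes, and WT mice on the fucose diet were not analysed here. The labels give neither age, sex, brain region nor batch, and do not say that each library came from a separate animal, so p-values measure only the spread between libraries.

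The proteasome degrades proteins that carry chains of ubiquitin. Its core is a barrel of stacked rings, in which the alpha subunits form the gate and 3 beta subunits, encoded by Psmb5, Psmb6 and Psmb7, cut the substrate. The 19S particle caps the barrel, recognises ubiquitin, removes it and threads the substrate into the core with a ring of ATPases. In neurons the proteasome takes part in synaptic remodelling, and its activity has been studied widely in Alzheimer's disease. The transcription factor NRF1, encoded by Nfe2l1, is known to raise the transcription of the subunit genes together when the proteasome is inhibited.

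Values are normalized counts, which are gene counts divided by 1 size factor per library. The libraries held 31.4 to 44.2 M counted reads (median 38.9 M), so that 1 read was worth 0.886 to 1.24 normalized counts. Each of the 22 cell type markers checked was present in every library, the lowest at 523 normalized counts, and neuronal, astrocytic and oligodendrocytic markers were all among them, as the label brain implies. In each group 1 library stood apart by Xist, the RNA of the inactive X chromosome: WT_CD 4 (11.7 normalized counts), 5xFAD_CD 5 (6.60) and 5xFAD_FD 5 (0), against 7251 to 12171 in the other 15. In bulk tissue, fewer cells of a type and less RNA per cell cannot be told apart.

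Of the 46 genes, 45 passed the filter on low counts. The exception was Psmb11, the catalytic subunit of the thymus proteasome, with a mean of 7.95 ± 5.72 normalized counts in WT_CD, 5.54 ± 3.08 in 5xFAD_CD and 9.11 ± 11.5 in 5xFAD_FD (SD, n = 6 each). Psma8, an alpha subunit known from the testis, passed with little more, at 17.3 ± 7.06, 16.1 ± 12.03 and 17.1 ± 8.76 normalized counts. Every other gene averaged at least 220 normalized counts in each group.

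Divided by the length of the principal transcript, levels differed several-fold between subunits that the assembled particle holds in equal numbers. In the alpha ring (Psma8 left out) they ran from 1128 normalized counts per kb for Psma3 to 4252 for Psma7, a ratio of 3.77. In the beta ring (Psmb11 left out) they ran from 2820 for the catalytic Psmb7 to 5903 for Psmb4, a ratio of 2.09. Among the 19S ATPases the range was from 1157 for Psmc6 to 6798 for Psmc5, a ratio of 5.87, and among the non-ATPases from 749 for the scaffold subunit Psmd1 to 3814 for the ubiquitin receptor Psmd4, a ratio of 5.09. With all annotated exons as the length these ratios were 4.24, 3.74, 8.68 and 6.02, and the highest genes were then Psma6 in the alpha ring and Psmd2 among the non-ATPases. The 7 assembly chaperones chosen by name had a median of 547 normalized counts per kb. The medians were 2425 for the alpha ring, 3542 for the beta ring, 3462 for the 19S ATPases and 2133 for the non-ATPases. Psmg3 was the lowest of the 7 chaperones at 272 and Psmg2 the highest at 787 (with all exons the highest was Psmg4, at 551). Pomp, a chaperone outside the name rule, stood at 2887. Among the activators Psme3, the nuclear PA28 gamma, stood at 1939 and Psme4, the PA200 activator, at 196, a ratio of 9.89 (11.5 with all exons). Psmf1, the inhibitor PI31, stood at 437.

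**Figure D1:**
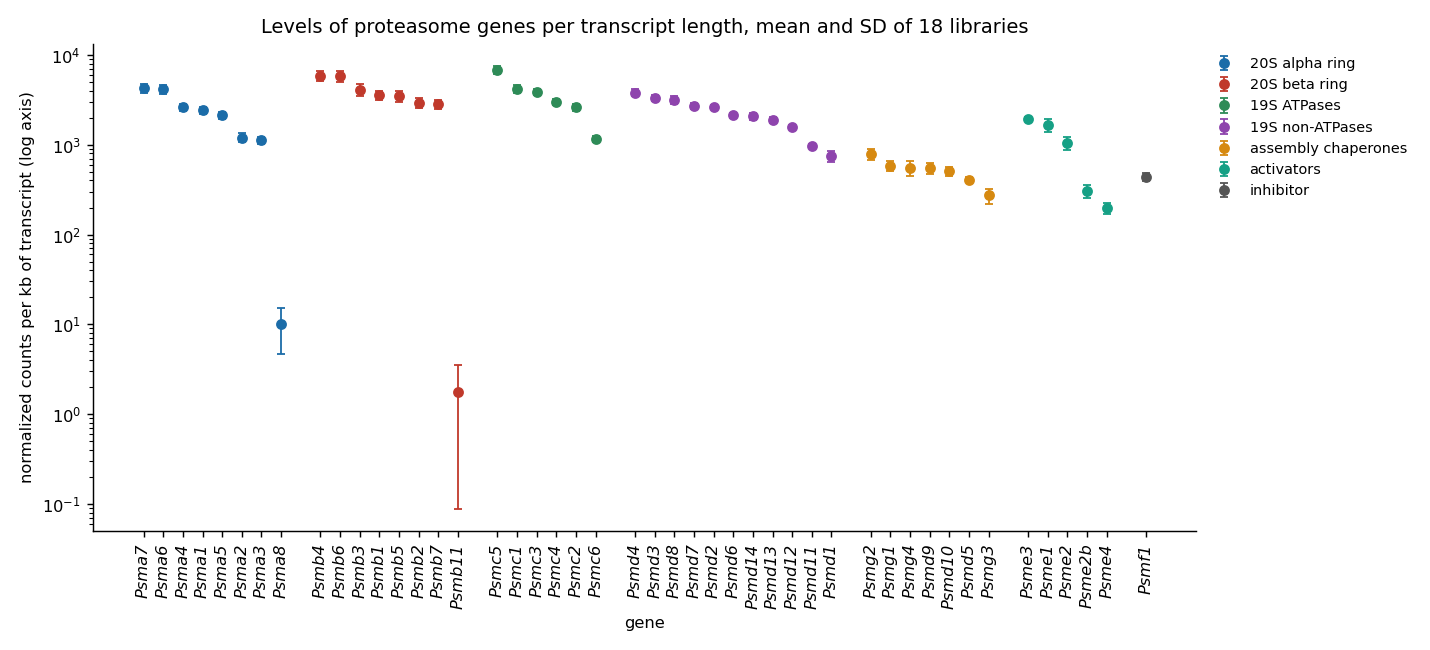
Level of each proteasome gene in normalized counts per kb of its principal transcript (log axis), ordered within each subcomplex; points are means and bars the SD over 18 libraries, with the lower bar of Psmb11 shortened to stay above 0. The 20S and 19S genes lie between 749 and 6798, apart from Psma8 and Psmb11, and the assembly chaperones between 272 and 787.

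The promoters of 2 catalytic genes are shown because NRF1 is known to bind the antioxidant response element, whose core is TGACNNNGC. Both windows run from 250 bases before the gene start to 50 bases after it (RefSeq, GRCm38.p6), read 5′ to 3′ on the strand of the gene. Capitals mark the match to the core, which begins at position -47 from the start in Psmb5 (chr14:54617946-54618245, minus strand) and at -9 in Psmb6 (chr11:70525107-70525406, plus strand).
Psmb5: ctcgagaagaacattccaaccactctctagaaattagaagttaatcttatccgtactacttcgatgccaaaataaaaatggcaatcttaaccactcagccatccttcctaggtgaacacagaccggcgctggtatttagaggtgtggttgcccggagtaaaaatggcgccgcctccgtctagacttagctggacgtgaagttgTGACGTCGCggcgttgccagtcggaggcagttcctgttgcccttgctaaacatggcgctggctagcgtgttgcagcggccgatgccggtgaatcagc
Psmb6: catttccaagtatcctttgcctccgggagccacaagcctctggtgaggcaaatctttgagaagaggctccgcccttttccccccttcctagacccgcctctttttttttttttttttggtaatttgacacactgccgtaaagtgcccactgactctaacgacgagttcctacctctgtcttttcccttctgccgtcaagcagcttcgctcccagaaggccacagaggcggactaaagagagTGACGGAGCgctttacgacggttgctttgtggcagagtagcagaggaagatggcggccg
A window was at hand for 38 of the 46 genes. TGACNNNGC, searched on both strands, was found in 6 of them (15.8%), against 14.9% of all 18876 genes with such a window. The other 4 were Psmc6, Psmd9, Psmd12 and Psme4. CCAAT, the box bound by NF-Y and also searched on both strands, was found in 13 of 38 (34.2%) against 41.5% of all genes, and no window of these genes held both motifs. Both shares lay near those of all genes.

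The first comparison, 5xFAD_CD against WT_CD, asks what the transgenes changed on control diet. None of the 45 tested proteasome genes was called higher or lower, where 2.14% of all tested genes were called. A call is a Benjamini-Hochberg adjusted p under 0.05 over 18808 genes, by limma on log2(normalized count + 1). Psme1 and Psme2, the PA28 activator, had the smallest p-values, at log2 fold changes of 0.30 ± 0.11 SE (adjusted p = 0.245) and 0.25 ± 0.12 SE (adjusted p = 0.425). They were the 2 genes higher at an unadjusted p under 0.05 (background 6.72%) and 0 were lower (background 4.72%). edgeR and voom gave the same numbers, and DESeq2 gave 1 higher. The estimates leaned upward: 37 of 45 lay above 0, against 48.4% of all genes, with a median of 0.061 against -0.0078 for all genes. The libraries of the groups overlapped for every one of the 45 (2.07% of all genes did not overlap). The median was 0.038 without 5xFAD_CD 5, 0.029 without WT_CD 3, 0.034 without WT_CD 6 and 0.096 without WT_CD 4.

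The second comparison, 5xFAD_FD against 5xFAD_CD, asks what fucose changed in 5xFAD brain. Again 0 of 45 proteasome genes were called, as were 0% of all tested genes. The catalytic genes Psmb7 and Psmb6 were lower at an unadjusted p under 0.05 (background 2.92%), with log2 fold changes of -0.19 ± 0.08 SE and -0.22 ± 0.09 SE (limma adjusted p = 0.822 for both), and 0 genes were higher (background 2.42%). edgeR and DESeq2 gave the same 2 genes, and voom added Psme2b. The estimates leaned downward: 36 of 45 lay below 0, against 51% of all genes, with a median of -0.11 against -0.0043. The median was -0.068 without 5xFAD_FD 6. Since both comparisons use the 5xFAD_CD libraries, a high library there raises the first difference and lowers the second, so the 2 leanings are not separate findings. Groups overlapped for all 45 genes (0.186% of all genes did not).

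The third comparison, 5xFAD_FD against WT_CD, shares 1 group with each of the others. Its differences do not use the 5xFAD_CD libraries, but its limma SE and p-values do, through the joint fit of 18 libraries. This comparison also gave 0 of 45 called, where 2% of all tested genes were called. At an unadjusted p under 0.05 Psmb7 was lower by limma, edgeR, DESeq2 and voom alike (background 4.77% by limma) and 0 genes were higher (background 6.09%). 30 of 45 estimates lay below 0, against 52.3% of all genes, with a median of -0.027. Of the libraries left out in turn, only 5xFAD_FD 6 turned the sign of that median, to 0.0080. It was lowest, at -0.054, without WT_CD 3. Groups overlapped for all 45 genes (1.56% of all genes did not).

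The intervals bound how large a change these libraries leave room for. The 95% interval lay inside a 1.5-fold change either way for 44 of 45 proteasome genes in each comparison, against 58.6%, 61.3% and 59% of all genes in the order above. The exception each time was Psma8, whose SE was 0.50 at its low level. Inside 1.25-fold lay 35, 26 and 34 of the 45, against 31.7%, 31.9% and 31.3% of all genes. The shares of all genes are not matched for level. A mean of at least 1000 normalized counts was reached by 38 of the 45, against 7057 of all 18808 tested genes. At that level the median SD between libraries of a group was similar, at 0.14 for the 38 and 0.16 for all 7057 (log2 scale). Psmd2, a scaffold subunit of the 19S base, had the smallest SD of the 45, at 0.068.

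**Figure D2:**
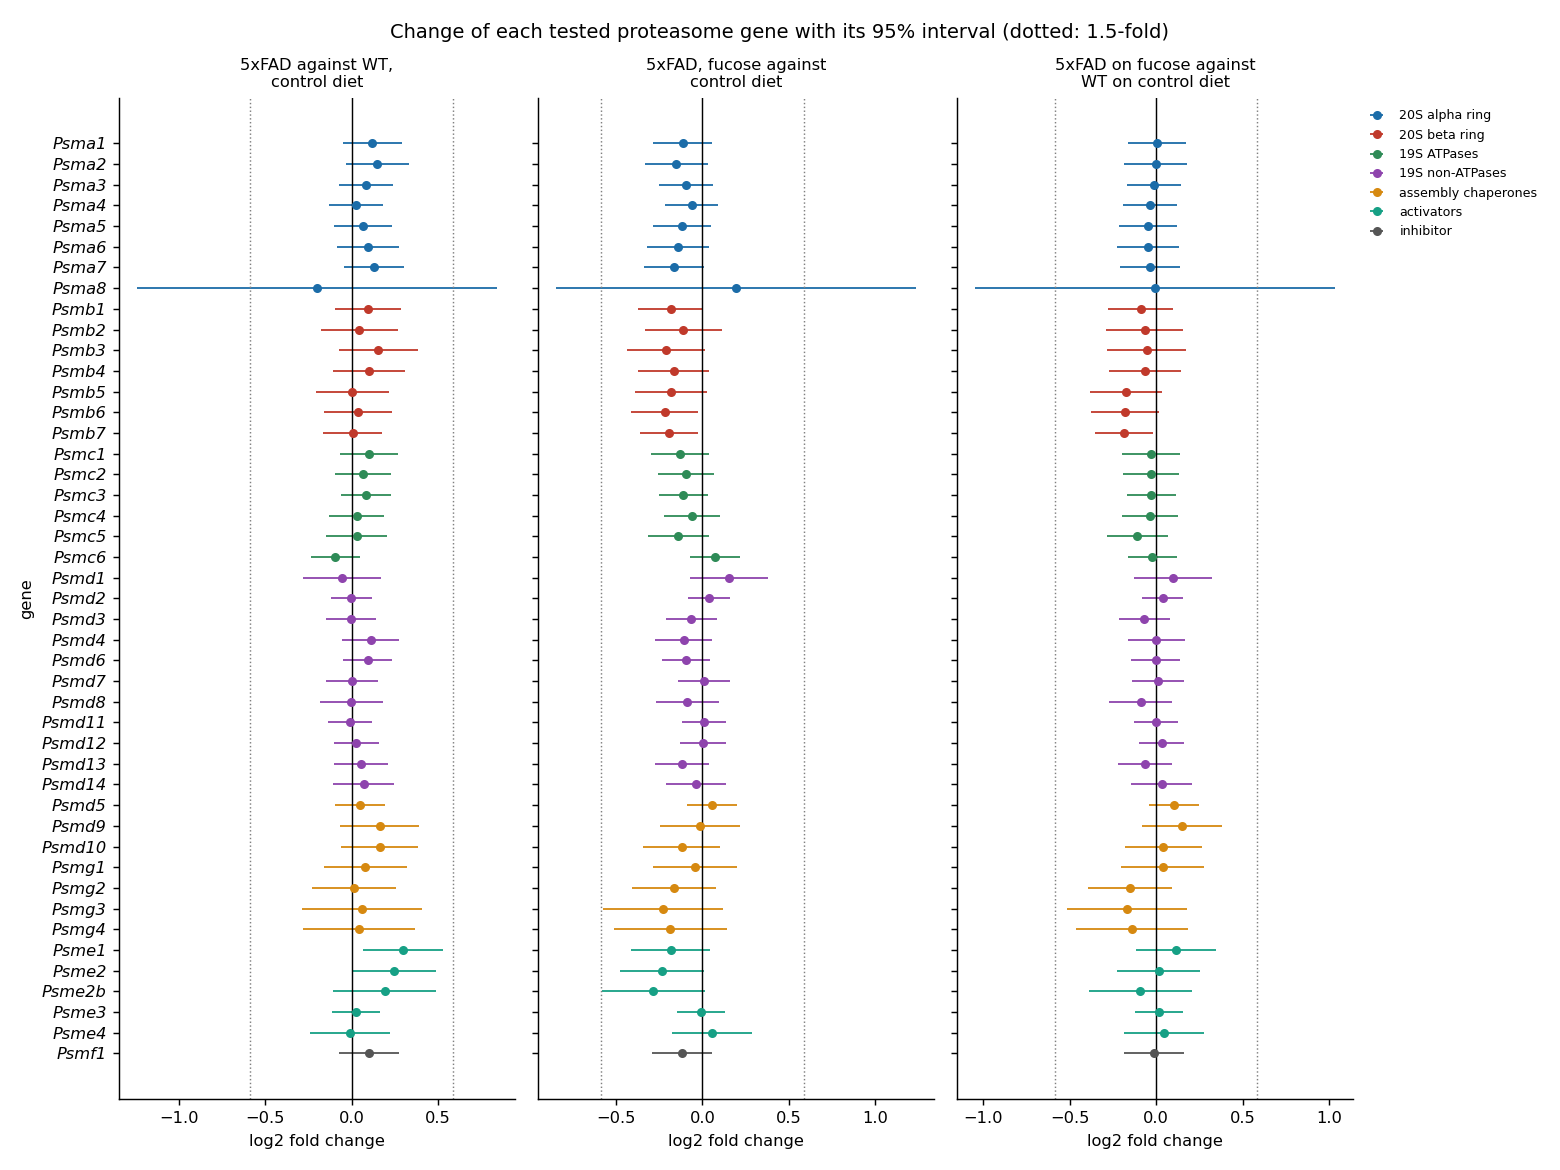
Log2 fold change of each of 45 proteasome genes in 3 comparisons, with points for the estimate and bars for the 95% interval; dotted lines mark a 1.5-fold change. All intervals except that of Psma8 stay inside the dotted lines, and most estimates lie right of 0 in the first panel (37 of 45) and left of 0 in the second (36 of 45).

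The 3 catalytic genes of the beta ring had estimates near 0 in 5xFAD on control diet and below 0 on fucose, none of them called. Psmb5, which encodes the chymotrypsin-like site, lies on chromosome 14 (54614120 to 54617995, mm10, minus strand). Its normalized counts ran from 2437 to 3920 (median 3208) in WT_CD, from 2974 to 4006 (median 3121) in 5xFAD_CD and from 2615 to 3299 (median 2846) in 5xFAD_FD. The WT_CD libraries alone span nearly the whole range, and 5xFAD_CD 5 is the highest of the 18. Its log2 fold change was 0.0049 ± 0.10 SE in the first comparison (95% interval -0.20 to 0.21), -0.18 ± 0.10 in the second and -0.18 ± 0.10 in the third (limma adjusted p = 0.990, 0.822 and 0.570). In the first its sign turned with DESeq2 and without 5xFAD_CD 5, among other alternatives. 12.1% of its exon bases lie in the annotated Mir686 on the same strand.

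Psmb6 encodes the caspase-like site and lies on chromosome 11 (70525367 to 70527858, plus strand). It ran from 4011 to 5489 normalized counts (median 4908) in WT_CD, from 4496 to 5922 (median 4774) in 5xFAD_CD and from 3569 to 4888 (median 4306) in 5xFAD_FD. 5 of the 6 fucose libraries lay below the lowest 5xFAD_CD library, and 5xFAD_FD 4 lay among them. The log2 fold changes were 0.036 ± 0.09 SE, -0.22 ± 0.09 and -0.18 ± 0.09 in the 3 comparisons (limma adjusted p = 0.930, 0.822 and 0.504).

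Psmb7, which encodes the trypsin-like site, lies on chromosome 2 (38588036 to 38644087, minus strand). Its normalized counts ran from 2869 to 3717 (median 3566) in WT_CD, from 3072 to 3856 (median 3359) in 5xFAD_CD and from 2523 to 3389 (median 3056) in 5xFAD_FD. 5xFAD_FD 6 is the lowest of the 18 libraries and 5xFAD_CD 5 the highest. In log2 terms the changes were 0.0066 ± 0.08 SE, -0.19 ± 0.08 and -0.19 ± 0.08 (limma adjusted p = 0.983, 0.822 and 0.404), and with each library left out in turn the second ran from -0.23 to -0.14. 11.8% of its exon bases are shared with Nek6 on the opposite strand, and the strandedness of counting is not given in the sources used here.

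**Figure D3:**
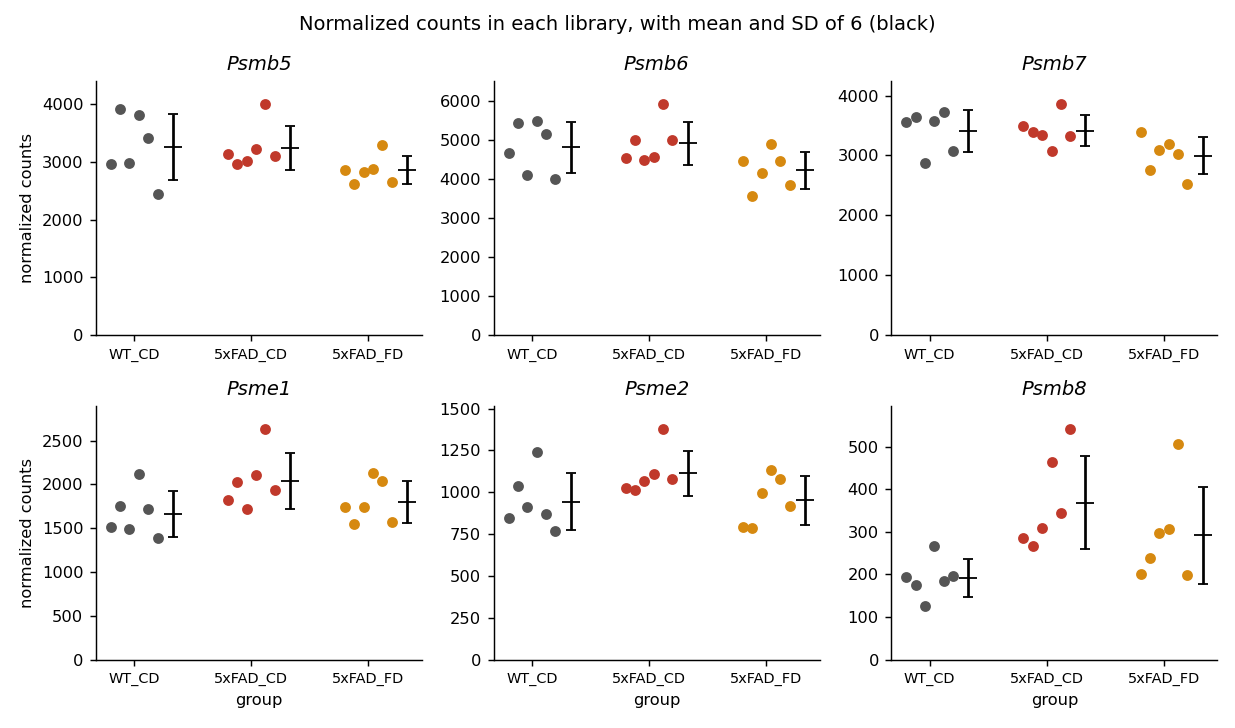
Normalized counts in each library (points) with mean and SD of 6 libraries (black) for 3 catalytic genes, the activator genes Psme1 and Psme2, and the immunoproteasome gene Psmb8. The groups overlap for the first 5 genes, while the lowest 5xFAD_CD library of Psmb8 (268) sits just above the highest WT_CD library (267).

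The other beta subunits are structural. Psmb3 had the smallest p of the beta ring in the first comparison, with 2446 to 3552 normalized counts in WT_CD (median 3109), 2790 to 4244 in 5xFAD_CD (median 3328) and 2587 to 3565 in 5xFAD_FD (median 2832). Its log2 fold change was 0.15 ± 0.11 SE there and -0.21 ± 0.11 on fucose (limma adjusted p = 0.646 and 0.822). Psmb4, the beta gene with the highest level per kb, averaged 6929 ± 1003, 7418 ± 1029 and 6601 ± 720 normalized counts (SD, n = 6 each). Over the 7 tested beta genes the median log2 fold change was 0.044, -0.18 and -0.090 in the 3 comparisons, with 7 estimates above 0 in the first (those of Psmb5, Psmb6 and Psmb7 turned sign when single libraries were left out, and that of Psmb5 also with DESeq2) and 7 below 0 in the others. With each library left out in turn the first median ran from -0.0082 without WT_CD 3 to 0.099 without WT_CD 4, and was 0.011 without 5xFAD_CD 5. The second ran from -0.22 to -0.13, nearest 0 without 5xFAD_CD 5, and the third from -0.14 without WT_CD 3 to -0.035 without 5xFAD_FD 6.

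Of the 8 alpha genes, 7 had estimates above 0 in the first comparison and 7 below 0 in each of the others, and none was called. Psma2 had the smallest p in the first comparison, with 2945 to 4052 normalized counts in WT_CD (median 3361), 3231 to 4155 in 5xFAD_CD (median 3708) and 2951 to 3825 in 5xFAD_FD (median 3343). The first and last groups nearly coincide, and its log2 fold change was 0.15 ± 0.09 SE, -0.15 ± 0.09 and -0.0030 ± 0.09 (limma adjusted p = 0.564, 0.822 and 0.994). Psma7 had the smallest p on fucose, at means of 3804 ± 417, 4153 ± 407 and 3702 ± 346 normalized counts and a log2 fold change of -0.17 ± 0.08 SE against 5xFAD_CD (limma adjusted p = 0.822). Psma5 had the smallest p in the third comparison, at -0.049 ± 0.08 SE (limma adjusted p = 0.901). Over the 8 alpha genes, Psma8 included, the medians were 0.089, -0.12 and -0.024.

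The estimates of the 19S genes lay nearer 0 than those of the core, a difference that was not tested. Over the 17 genes the median log2 fold change was 0.028, -0.064 and -0.022 in the 3 comparisons, against 0.083, -0.15 and -0.049 for the 15 tested genes of the 20S core. Single libraries moved these medians. For the 19S genes the first fell to 0.0083 without WT_CD 3, 0.0086 without WT_CD 6 and 0.0096 without 5xFAD_CD 5, and was 0.052 without WT_CD 2, 0.046 without 5xFAD_CD 4 and 0.044 without WT_CD 5. In the second comparison their median was -0.020 without 5xFAD_FD 6, and in the third it ran from -0.042 without WT_CD 3 to 0.022 without 5xFAD_FD 6. For the 20S genes the first was 0.040 without 5xFAD_CD 5, 0.046 without WT_CD 6 and 0.051 without WT_CD 3, and the third ran from -0.086 without 5xFAD_FD 4 to -0.013 without WT_CD 4. Of the 17, 11 lay above 0 in the first comparison and 11 below 0 in each of the others. Among the ATPases, Psmc5 ran from 7890 to 10023 normalized counts in WT_CD (median 9166), from 8597 to 11062 in 5xFAD_CD (median 8927) and from 6907 to 9456 in 5xFAD_FD (median 8640). The high end of 5xFAD_CD was again replicate 5 and the low end of 5xFAD_FD replicate 6, and the fucose difference was -0.14 ± 0.08 SE (limma adjusted p = 0.822). Psmc6 was the ATPase with estimates of the opposite sign, at -0.094 ± 0.07 SE in 5xFAD on control diet and 0.073 ± 0.07 SE on fucose (limma adjusted p = 0.663 and 0.864). Its means were 2654 ± 176, 2484 ± 120 and 2618 ± 244 normalized counts.

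Among the non-ATPases, Psmd4, a ubiquitin receptor, averaged 4947 ± 429, 5331 ± 395 and 4961 ± 561 normalized counts, and its log2 fold change in the first comparison was 0.11 ± 0.08 SE (limma adjusted p = 0.660), 0.066 to 0.13 with each library left out in turn. Psmd13, a lid subunit, averaged 3755 ± 352, 3883 ± 140 and 3594 ± 365, with -0.12 ± 0.08 SE on fucose (limma adjusted p = 0.823), -0.14 to -0.060 in such repeats. Psmd8, also of the lid, had the smallest p in the third comparison, at -0.089 ± 0.09 SE (limma adjusted p = 0.794), -0.14 to -0.026 in such repeats. Psmd1, the large scaffold of the base, had the highest fucose estimate of the 19S genes, at 0.15 ± 0.11 SE (limma adjusted p = 0.825), with 1922 to 2499 normalized counts in 5xFAD_CD (median 2243) and 1901 to 2862 in 5xFAD_FD (median 2467). The fucose libraries enclose the control range. The mean level per kb of the 20S genes (Psma8 left out) less that of the 19S genes, each as log2(normalized counts per kb + 1), was 0.32 ± 0.10 in WT_CD, 0.37 ± 0.09 in 5xFAD_CD and 0.26 ± 0.07 in 5xFAD_FD (SD, n = 6 each), with overlapping ranges of 0.21 to 0.45, 0.28 to 0.52 and 0.17 to 0.36.

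The SE of the assembly chaperones ran from 0.07 for Psmd5 to 0.17 for Psmg3. Psmd10 (gankyrin), which guides assembly of the base, averaged 694 ± 113, 769 ± 48.1 and 711 ± 90.5 normalized counts, a log2 fold change of 0.16 ± 0.11 SE in the first comparison (limma adjusted p = 0.614), 0.081 to 0.23 with each library left out in turn. Psmg2, partner of Psmg1 in alpha ring assembly, averaged 861 ± 146, 864 ± 98.4 and 775 ± 118, with -0.16 ± 0.12 SE on fucose (limma adjusted p = 0.829). Psmd5, another chaperone of the base, was above 0 in all 3 comparisons, at 0.050, 0.053 and 0.10 ± 0.07 SE (limma adjusted p = 0.652 in the third). Psmg3 averaged 246 ± 51.5, 255 ± 36.4 and 220 ± 52.7 normalized counts. Psmd9 shares 25.5% of its exon bases with Gm26745 on the opposite strand, so its reads may not all be its own.

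The activator genes carried the highest estimates of the first comparison. Psme1, the alpha subunit of PA28 that opens the gate of the core, lies on chromosome 14 (55578123 to 55581529, plus strand). It ran from 1383 to 2118 normalized counts in WT_CD (median 1616), from 1718 to 2635 in 5xFAD_CD (median 1981) and from 1545 to 2129 in 5xFAD_FD (median 1741). 4 of the 6 WT_CD libraries lay below the lowest 5xFAD_CD library, WT_CD 4 lay above 5 of the 6, and 5xFAD_CD 5 was the highest of the 18. Its log2 fold change was 0.30 ± 0.11 SE (95% interval 0.068 to 0.53), -0.18 ± 0.11 and 0.11 ± 0.11 in the 3 comparisons (limma adjusted p = 0.245, 0.822 and 0.789). Leaving out 5xFAD_CD 5 gave 0.22 in the first and leaving out WT_CD 4 gave 0.37.

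Psme2, the beta subunit of PA28, is a neighbour of Psme1 on chromosome 14 (55587441 to 55591113, minus strand). Its normalized counts ran from 766 to 1238 in WT_CD (median 890), from 1011 to 1380 in 5xFAD_CD (median 1076) and from 787 to 1133 in 5xFAD_FD (median 957). As for Psme1, the highest library of each group was WT_CD 4, 5xFAD_CD 5 and 5xFAD_FD 4. The 3 log2 fold changes were 0.25 ± 0.12 SE, -0.23 ± 0.12 and 0.014 ± 0.12 (limma adjusted p = 0.425, 0.822 and 0.982).

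Psme2b on chromosome 11 (48945354 to 48946190, minus strand) is a near copy of Psme2, and a stretch of both coding sequences is shown because it bears on which gene a read can be assigned to. The 2 coding sequences (GENCODE M21 transcripts) align over 717 bases with 5 mismatches (99.3% identity). Bases 486 to 545 of each, counted from the start codon, hold 3 of the mismatches, marked by capitals.
Psme2: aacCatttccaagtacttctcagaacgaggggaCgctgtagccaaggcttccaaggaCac
Psme2b: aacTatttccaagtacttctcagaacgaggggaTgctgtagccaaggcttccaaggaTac
Of the stretches of 50 bases in the Psme2b coding sequence, 69.5% occur exactly in the Psme2 transcript, and of those of 100 bases 49.7%, so the counts of the pair are uncertain. Psme2b averaged 250 ± 39.6, 284 ± 26.9 and 236 ± 46.7 normalized counts, with log2 fold changes of 0.19 ± 0.14 SE, -0.28 ± 0.14 and -0.090 ± 0.14 (limma adjusted p = 0.670, 0.822 and 0.898).

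The other activators and the inhibitor lay near 0. Psme3, which is not known to be induced by interferon gamma as PA28 alpha and beta are, averaged 5115 ± 398, 5204 ± 224 and 5178 ± 389 normalized counts, log2 fold changes of 0.027, -0.0096 and 0.018 ± 0.07 SE. Psme4 averaged 1262 ± 189, 1246 ± 100 and 1312 ± 258, with -0.0087, 0.056 and 0.048 ± 0.11 SE. Psmf1, which binds the core and can inhibit it in vitro, averaged 1626 ± 120, 1748 ± 152 and 1616 ± 201, with 0.10, -0.12 and -0.015 ± 0.08 SE (limma adjusted p = 0.703, 0.829 and 0.974).

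The proteasome genes lay high or low together in single libraries of a group. In 5xFAD_CD 5, 38 of 45 lay above their own mean over the 18 libraries, with a median of 117% of it, and in 5xFAD_CD 6 it was 36. In 5xFAD_FD 2 and 5xFAD_FD 6 only 4 of 45 did in each, with medians of 91.4% and 85.1%. In WT_CD 6 it was 7 and in WT_CD 3 it was 8, while in WT_CD 4 and WT_CD 5 it was 35 in each. Over all tested genes the share above their own mean was 50.6% to 53.1% in every library. The median deviation of the 45 genes averaged -0.0099 ± 0.13 in WT_CD, 0.062 ± 0.09 in 5xFAD_CD and -0.042 ± 0.12 in 5xFAD_FD on the log2 scale (SD, n = 6 each). The pooled SD within groups was 0.11, which is the spread of single libraries and not the error of a group mean. The difference between these group means was not tested. The 20S genes spread further than the 19S genes, from -0.24 to 0.29 against -0.24 to 0.12. The medians of 75 ribosomal protein genes were high and low in the same libraries, at 0.52 in 5xFAD_CD 5, -0.34 in 5xFAD_FD 6 and -0.33 in WT_CD 6, and their part in the proteasome values was not tested. Without the low-Xist library of each group, the medians of the 3 comparisons were 0.056, -0.10 and -0.019, and 0 genes were called.

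**Figure D4:**
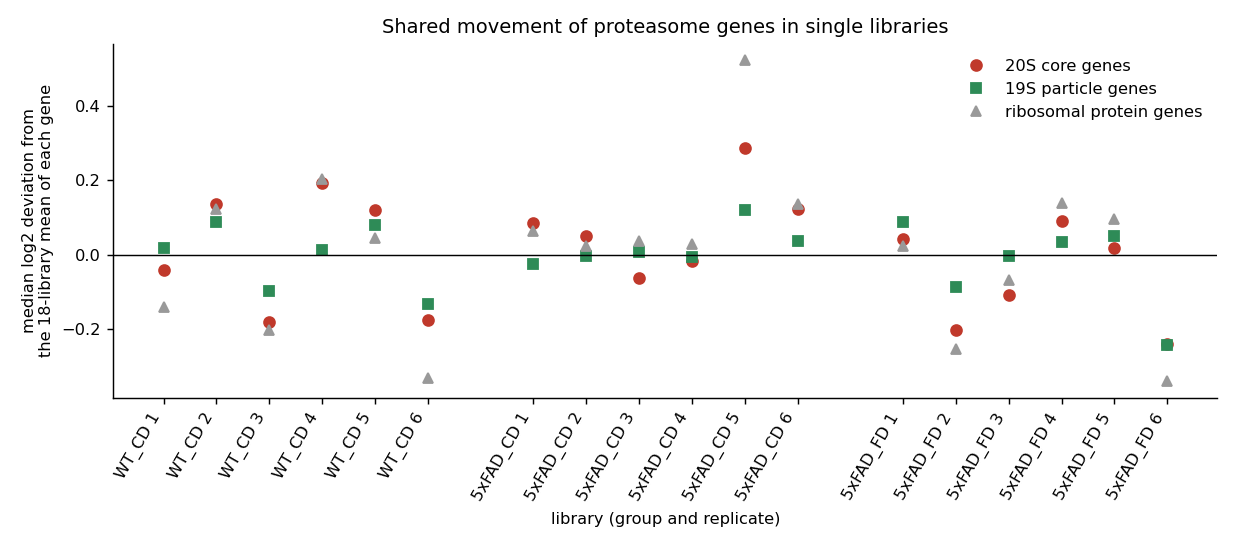
Median log2 deviation of 20S genes (circles), 19S genes (squares) and 75 ribosomal protein genes (triangles) from the mean of each gene over 18 libraries, by library. The 20S median reaches 0.29 in 5xFAD_CD 5 and -0.24 in 5xFAD_FD 6, and the ribosomal protein genes lie further out in the same direction in both.

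Short transcripts held the lower estimates on fucose. Of the 16 tested genes with a principal transcript under 1.2 kb, 16 lay below 0 in 5xFAD_FD against 5xFAD_CD, with a median log2 fold change of -0.18, and 16 lay above 0 in 5xFAD_CD against WT_CD, with a median of 0.070. Of the 10 genes with a transcript over 2.5 kb, 5 lay below 0 and 5 above on fucose, with a median of 0.00058. In 5xFAD_CD against WT_CD 6 of these 10 lay above 0 and 4 below, with a median of 0.039. Such counts were not made for all tested genes of these lengths. Across the 45 genes Spearman's rho between length and change was -0.31, 0.72 and 0.56 in the 3 comparisons, and across 15521 tested genes with a length it was -0.27, 0.38 and 0.061. These are descriptions across genes that share the same libraries. Of the 16 short genes 9 belong to the 20S core, 4 to the chaperones, 3 to the activators and 0 to the 19S particle, while of the 10 long genes 2 belong to the 20S core and 3 to the 19S particle. The parts of subcomplex and length were not tested separately.

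**Figure D5:**
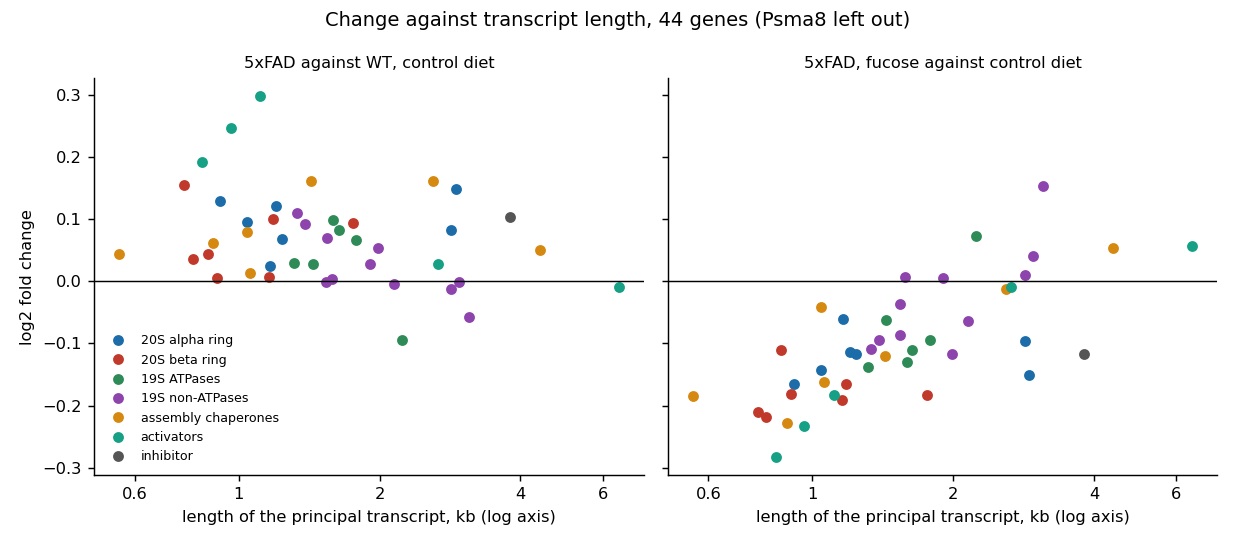
Log2 fold change of 44 proteasome genes (Psma8 left out) against the length of the principal transcript in kb (log axis), for 5xFAD against WT on control diet (left) and fucose against control diet in 5xFAD (right). In the right panel every gene under 1.2 kb lies below 0, while those over 2.5 kb lie on both sides.

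The pathway around these genes was read from 35 further genes, all of them tested. In the first comparison 1 was called higher and 0 lower, a share of 2.86% that lies near the 2.14% of all tested genes, and in the others 0 were called. The gene that rose was Psmb8, which replaces Psmb5 in the immunoproteasome and is induced by interferons. It ran from 127 to 267 normalized counts in WT_CD (median 190), from 268 to 543 in 5xFAD_CD (median 328) and from 199 to 507 in 5xFAD_FD (median 268). Its log2 fold change was 0.93 ± 0.22 SE in the first comparison (limma adjusted p = 0.0191, 0.0019 to 0.067 over its alternatives). The call held in 20 of 23 alternatives and was lost without WT_CD 3 (adjusted p = 0.0568), without 5xFAD_CD 4 (adjusted p = 0.0598) and without 5xFAD_CD 6 (adjusted p = 0.0666). On fucose the log2 fold change was -0.37 ± 0.22 SE against 5xFAD_CD and 0.56 ± 0.22 SE against WT_CD (limma adjusted p = 0.822 and 0.303). 14.7% of its exon bases are shared with Gm20496 on the opposite strand.

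Psmb9, which replaces Psmb6, averaged 145 ± 70.0, 242 ± 105 and 182 ± 51.8 normalized counts, and its log2 fold change of 0.72 ± 0.28 SE did not pass in the first comparison (limma adjusted p = 0.268). Its WT_CD median was 112, with WT_CD 4 the highest of that group at 285. Tap1 shares 5.79% of the Psmb9 exon bases on the opposite strand. Psmb10, which replaces Psmb7, was more abundant, at 2110 ± 232, 2113 ± 284 and 1770 ± 300 normalized counts and -0.0011 ± 0.11 SE, a value whose sign turned under TMM scaling, edgeR, DESeq2 and voom. On fucose it stood at -0.26 ± 0.11 SE (limma adjusted p = 0.822).

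Each immunoproteasome gene was set against the constitutive gene it replaces, as levels per kb within a library. The percentages depend on the transcript lengths, the folds between groups do not. This test was chosen after the values of Psmb8 were known. Psmb8 stood at 3.29% ± 0.83 of Psmb5 in WT_CD, 6.33% ± 2.01 in 5xFAD_CD and 5.54% ± 1.66 in 5xFAD_FD (SD, n = 6 each). The 5xFAD_CD libraries (4.75% to 9.65%) did not overlap those of WT_CD (2.34% to 4.47%), a 1.90-fold difference (2-sided exact permutation p = 0.0022, the smallest that 924 splits allow, and 0.0195 after Benjamini-Hochberg adjustment over 9 tests). With each library left out in turn it ran from 1.74-fold to 2.03-fold. The groups stay apart in every such repeat, so its call could not be lost there and the repeats add nothing to it. In 5xFAD_FD against WT_CD it was 1.67-fold (exact permutation p = 0.0108, adjusted p = 0.0487), a call kept in 4 of 12 such repeats, and between the 5xFAD groups 0.877-fold (exact permutation p = 0.455). That call rests on adjustment over the 9 ratio tests only. Adjusted over 18808 genes, Psmb8 alone was not called in 5xFAD_FD against WT_CD (limma adjusted p = 0.303). In 5xFAD_CD against WT_CD Psmb8 alone gave 1.91-fold, so the ratio there is not a separate finding. Psmb9 stood at 1.75% ± 0.66, 2.91% ± 1.31 and 2.54% ± 0.60 of Psmb6 (exact permutation adjusted p = 0.146 for 5xFAD_CD against WT_CD). That difference passed without WT_CD 4 alone, at 1.82-fold (exact permutation adjusted p = 0.0292). For 5xFAD_FD against WT_CD the same ratio passed without WT_CD 4 (1.66-fold, exact permutation adjusted p = 0.0325) and without 5xFAD_FD 1 (1.65-fold, exact permutation adjusted p = 0.0455), and did not with all libraries (1.47-fold, exact permutation adjusted p = 0.146). Without the low-Xist library of each group the first was 1.87-fold (exact permutation adjusted p = 0.0357), and the ratio of Psmb8 to Psmb5 was 2.08-fold in the first comparison (exact permutation adjusted p = 0.0357) and 1.58-fold in the third (exact permutation adjusted p = 0.0714). Both ratios of the first comparison then had an exact permutation p of 0.0079, the smallest that 252 splits allow. Their adjusted p of 0.0357 rests on that tie. In each case where the Psmb9 ratio passed, its adjusted p depended on the Psmb8 tests among the same 9. Psmb10 stood at 55.0% ± 5.08, 54.8% ± 5.46 and 52.3% ± 6.90 of Psmb7. The exact permutation adjusted p was 0.916 for 5xFAD_CD against WT_CD, and 0.604 for 5xFAD_FD against 5xFAD_CD and against WT_CD. 4 microglial markers summed to 7442 to 9258 normalized counts in WT_CD, 12411 to 14102 in 5xFAD_CD and 11152 to 16727 in 5xFAD_FD, with 2 of the 4 called in both comparisons with WT_CD. Their part in the values of Psmb8 and of the activators was not tested. No marker was called for neurons (0 of 5), astrocytes (0 of 4) or oligodendrocytes (0 of 4).

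In the main limma fit, on the deposited size-factor scaling with all libraries, the regulators of subunit transcription were not called. Nfe2l1 averaged 15088 ± 1451, 14953 ± 1432 and 15723 ± 792 normalized counts (SD, n = 6 each), log2 fold changes of -0.013, 0.077 and 0.063 ± 0.07 SE (limma adjusted p = 0.969, 0.864 and 0.833), the first of which turned sign under TMM scaling, edgeR and voom. Its relative Nfe2l2, which encodes NRF2, stood at 0.50 ± 0.14 SE in 5xFAD on control diet (limma adjusted p = 0.0564), from 543 to 819 normalized counts in WT_CD and from 724 to 1058 in 5xFAD_CD, and is named here after its value was seen. It was called in 5 of 23 alternatives (adjusted p 0.0178 to 0.160 over them), with TMM scaling (adjusted p = 0.0490), DESeq2 (adjusted p = 0.0202) and 2 groups in the fit (adjusted p = 0.0465), without WT_CD 4 (adjusted p = 0.0178) and without 5xFAD_CD 2 (adjusted p = 0.0375). Pomp, the chaperone that matures the beta ring, averaged 4650 ± 468, 4837 ± 567 and 4191 ± 457, with 0.055, -0.21 and -0.15 ± 0.09 SE (limma adjusted p = 0.870, 0.822 and 0.570). Of the ubiquitin genes and activating enzymes (6), shuttle factors (5), p97 and its cofactors (7) and other regulators and assembly factors (10), 0 were called in any of the 3 comparisons.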

How the data were processed

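Poly(A)-selected, randomly primed brain RNA of 18 libraries was analysed. Per the submitters' processing notes the build was mm10 and the tools DESeq2 2.11.40.8, featureCounts 2.0.3, HISAT2 2.2.1 and Trimmomatic 0.39, in no stated role. The deposited values are a signal, counts the authors divided by a size factor. 100% of values were whole multiples of 1 read within 0.001 reads, so reads were recovered. A count of 0 allows 3 reads, 2.66 to 3.72 normalized counts, for counting error only. Genes kept by filterByExpr (minimum count 10) were fitted with limma 3.58.1 in R 4.3.3 (trend, robust, log2 with a pseudocount of 1, 18 libraries together), which was tested on simulated data. Lengths, exon overlaps and coding sequences are from GENCODE M21, in which 46 of 46 genes were found, 35 with identical coordinates. Exact permutation tests were run on log2 level ratios.

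Alternatives were pseudocounts 0.5 and 5, no filter, a minimum count of 50, TMM, edgeR 4.0.16, DESeq2 1.42.0, voom, 2 groups in the fit, the replicate number as a block, and leaving out each library or the low-Xist libraries. Named genes are the catalytic genes, the smallest p of each subcomplex in each comparison, the highest and lowest level per kb, those failing the filter, called pathway genes, and Psmb8, Psmb9, Psmb10, Nfe2l1 and Pomp. The members and lists were chosen with earlier results of these data known. 2 stray cells outside the named columns were not used.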

Additional observations from a re-analysis of the deposited data

Results flagged for a closer look

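In 13 of 144 groups of 6 libraries tested, 1 library lay far from the other 5 by Dixon's test. The test sets the gap of that library to the nearest against the range of the group, and chance flags about 1 in 20. The genes share the same 18 libraries and lay high or low together. The flags are therefore not separate, and that rate is no yardstick for their number. 7 of the 13 were high values in 5xFAD_CD 5, given in normalized counts with the range of the other 5 libraries. They were Psma4 at 3686 (2802 to 3127), Psmb1 at 7931 (5993 to 6646), Psmb5 at 4006 (2974 to 3228), Psmb6 at 5922 (4496 to 4998), Psmc5 at 11062 (8597 to 9509), Psme2 at 1380 (1011 to 1112) and Psme2b at 334 (259 to 285). In 5xFAD_FD 3, Psmc6 stood at 3102 (2437 to 2609) and the barely detected Psmb11 at 31.6 (0.933 to 10.6). Psmd2 stood at 8705 in 5xFAD_FD 2 (7546 to 7976) and Psme4 at 1442 in 5xFAD_CD 4 (1159 to 1241). The 2 low values were Psmd12 at 2570 in WT_CD 3 (3008 to 3253) and Psmd5 at 1712 in 5xFAD_FD 4 (1843 to 1917).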

How the results depend on the processing

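No proteasome gene was called under any of 23 alternatives in any comparison, where the smallest adjusted p was 0.0717 (Psme1, with the replicate number as a block). Correlations of the deviations of same-numbered libraries ran from -0.17 to 0.33 over 18 pairs, 4 of them over 0.1, against -0.21 to 0.22 for libraries of other numbers, and 8 of 18 libraries correlated best with their own number. The labels do not say what the numbers mean, and the main fit did not take them as pairs. With that block, limma called 387 higher and 52 lower, 0, and 379 higher and 33 lower of all genes in the 3 comparisons. Genes with an unadjusted limma p under 0.05 then numbered 2358, 1292 and 2262, against 2150, 1005 and 2043 in the main fit. Whether the numbers mark pairs or a batch was not tested. DESeq2 called 85 lower where limma called 31 in the first comparison, and 58 where limma called 17 in the third. Of 63 log2 fold changes recomputed for named genes, 45 kept sign and call throughout, 16 changed sign in some alternative, Psmb8 lost its call and Nfe2l2 gained one. Of the 47 that kept their sign, 20 moved by over 1.5 times in some alternative. In 5xFAD_CD against WT_CD, Nfe2l1 reached 0.0017 with TMM, 0.0021 with edgeR and 0.0024 with voom, Psmb10 0.014 with TMM, 0.017 with edgeR, 0.0021 with DESeq2 and 0.016 with voom, Psme4 0.0062 with TMM and 0.0037 with voom, Psmb5 -0.0066 with DESeq2 and -0.0074 without the low-Xist libraries, and Psmb7 -0.014 without them. In 5xFAD_FD against WT_CD, Psma2 reached 0.0050 with TMM, 0.0023 with edgeR, 0.0032 with voom and 0.036 without the low-Xist libraries, and Psmf1 0.012 without them. With each library left out in turn, the first comparison ran from -0.052 to 0.034 for Nfe2l1, -0.0042 to 0.093 for Pomp, -0.064 to 0.046 for Psmb10, -0.075 to 0.062 for Psmb5, -0.019 to 0.076 for Psmb6, -0.041 to 0.036 for Psmb7, -0.0083 to 0.060 for Psme3, -0.053 to 0.061 for Psme4, 0.45 to 0.58 for Nfe2l2 and 0.81 to 1.03 for Psmb8. The second ran from -0.038 to 0.026 for Psme3 and -0.032 to 0.10 for Psme4. The third ran from -0.041 to 0.051 for Psma2, -0.081 to 0.00029 for Psma5, -0.043 to 0.096 for Psme2, -0.018 to 0.053 for Psme3, -0.041 to 0.12 for Psme4 and -0.076 to 0.015 for Psmf1. The ratio of Psmb9 to Psmb6 on fucose ran from 0.841-fold to 1.02-fold and that of Psmb10 to Psmb7 in the first comparison from 0.972-fold to 1.02-fold. The causes were not tested. Psmb11 and Psma8 had the fewest reads of the 46 genes.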
